A study of Mus musculus with 16 samples.

Results

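The endoplasmic reticulum (ER) and integrated stress response genes described here are Ddit3, Atf3, Atf4, Trib3, Chac1, Asns, Hspa5, Xbp1, Herpud1 and Hspa1b, a set of 10. Every probe other than control spots whose gene name, or RefSeq accession converted to a symbol, was one of these 10 was taken. This gave 10 probes for 9 genes, of 20972 genes with a named probe, and all 9 were among the 10955 genes that passed the filter on dim probes and were tested. Hspa1b, a stress-inducible cytosolic chaperone, matched no probe and was not analysed here. Atf4 had 2 probes and each of the others had 1.

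The RNA came from E14 mouse embryonic stem (ES) cells grown in medium with 15% fetal bovine serum and LIF. Cells received 3 µg of plasmid by lipofection, were sorted for eGFP fluorescence at 24 h, plated again and harvested at 48 h, so lipofection, sorting and eGFP were common to every group. The control cells carried EGFP alone. A second group carried Ptn(TALE)VP64, another Ptn(TALE)DEL and the last Ptn(TALE)Delta, called VP64, DEL and Delta below. A TALE is a designed DNA-binding protein, here directed at Ptn, the gene of the growth factor pleiotrophin. VP64 is a strong transcriptional activation domain, DEL is known from the published work as an acidic peptide that opens chromatin, and Delta is known from it as the TALE with no fused effector, which the labels do not spell out. Each group had 4 one-colour arrays, made from 2 biological and 2 technical replicates whose order is not stated, on 2 slides. Expression is transient, so the dose of construct in a cell was not controlled.

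When proteins fail to fold in the ER, or amino acids or haem run short, sensor kinases phosphorylate the translation factor eIF2. Most protein synthesis then slows while Atf4 mRNA is translated more, and the ATF4 protein switches on genes for amino acid supply and, when stress persists, for cell death. In parallel the sensors Ern1 and Atf6 raise ER chaperones and degradation factors, the first by splicing Xbp1 mRNA. The arrays measured transcript amounts, not the translation of Atf4 or the splicing of Xbp1.

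Across the 6 pairs of groups, the 9 stress genes showed no difference that passed the test over all genes. Chac1 stood at 2.14 and 2.26 on the VP64 arrays and between 3.13 and 3.71 on all DEL and Delta arrays. Atf3 was not well above background on any EGFP array and was well above it on 3 VP64, 3 DEL and 2 Delta arrays. A DEL array at -2.22 passed and an EGFP array at -2.13 did not, so the limit of detection differed between arrays. The group means of the other 7 spanned from 0.353 for Atf4 to 0.876 for Ddit3 on the log2 scale. All levels are log2 signals minus that of the array's 75th percentile, corrected for local shifts on the glass, so 0 is that percentile. They compare one probe across arrays and never one probe with another.

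Of the 144 possible values of the 9 genes, 110 could be used. The other 34 lay in patches of shifted signal or were marked as uneven by the scanner software, and 33 of them were on slide 1. Patches took 13.8% to 35.6% of spots on the arrays of slide 1 and 0.641% to 13.1% on those of slide 2. The signal at the 75th percentile ranged from 209 to 1253 units, and 27.1% to 43.8% of spots were well above background. On each slide a construct had its own column of positions, so construct and position cannot be told apart. By the best-detected probe of each gene, all 12 ES cell markers examined, Pou5f1, Sox2 and Nanog among them, were well above background on all 16 arrays. Another probe of Nanog, of Tfcp2l1 and of Dppa4 was not. Of the 12 markers, 10 could be tested and limma called 0, with 0 at an unadjusted p under 0.05 in VP64 against EGFP. By the sign of the fitted difference all 10 were lower in VP64 than in EGFP (median difference -0.47, lowest -1.40), and 9 of 10 in DEL and in Delta (medians -0.28 and -0.40). By the probe tested, Ptn stood between 2.60 and 3.31 on the 3 VP64 arrays used and at most at 0.56 on any other array. Its difference from EGFP was 4.11 ± 1.22 (limma, SE; adjusted p = 0.432, or 0.0275 with arrays not averaged). A second Ptn probe stood at 3.36 on the 1 VP64 array used. The means of that probe were -1.19 in EGFP, -0.21 in DEL and -0.38 in Delta, and its highest DEL value was 0.99.

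The test was limma on arrays averaged to 2 samples per group, in each of the 3 ways of pairing 4 arrays. Where the arrays left in a group all fell in 1 pair, that group had 1 sample in that pairing. The test kept the largest p of the 3 and adjusted it by the method of Benjamini and Hochberg. At adjusted p under 0.05 it called 0 of the 9 genes in VP64 against EGFP, where 0.0183% of all genes passed. It called 0 of 9 in VP64 against Delta and in VP64 against DEL, where 0.00913% of all genes passed each time. With the replicate number as a block, VP64 against DEL gave 239 genes instead of 1, and again 0 of the 9. In DEL against EGFP, Delta against EGFP and DEL against Delta it called 0 of 9, beside 0.0% of all genes. At an unadjusted p under 0.05 the same test gave 0 of 9 in VP64 against EGFP, beside 8.33% of all genes. It gave 1 of 9, Chac1, in VP64 against Delta and in VP64 against DEL, beside 4.93% and 4.16%. It gave 0 of 9 in the others, beside 2.48% in DEL against EGFP, 2.9% in Delta against EGFP and 0.0822% in DEL against Delta.

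A fit of all 16 arrays without averaging gives p-values that are too small, because repeats of one sample enter it as if independent. It too called 0 of 9 in every comparison, beside 3.4% of all genes in VP64 against EGFP, 0.712% in VP64 against Delta and 0.867% in VP64 against DEL. The shares were 0.0183% in Delta against EGFP and 0.0% in DEL against EGFP and in DEL against Delta. Comparisons against EGFP share the EGFP arrays, so their values below are set side by side and not correlated.

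**Figure D1:**
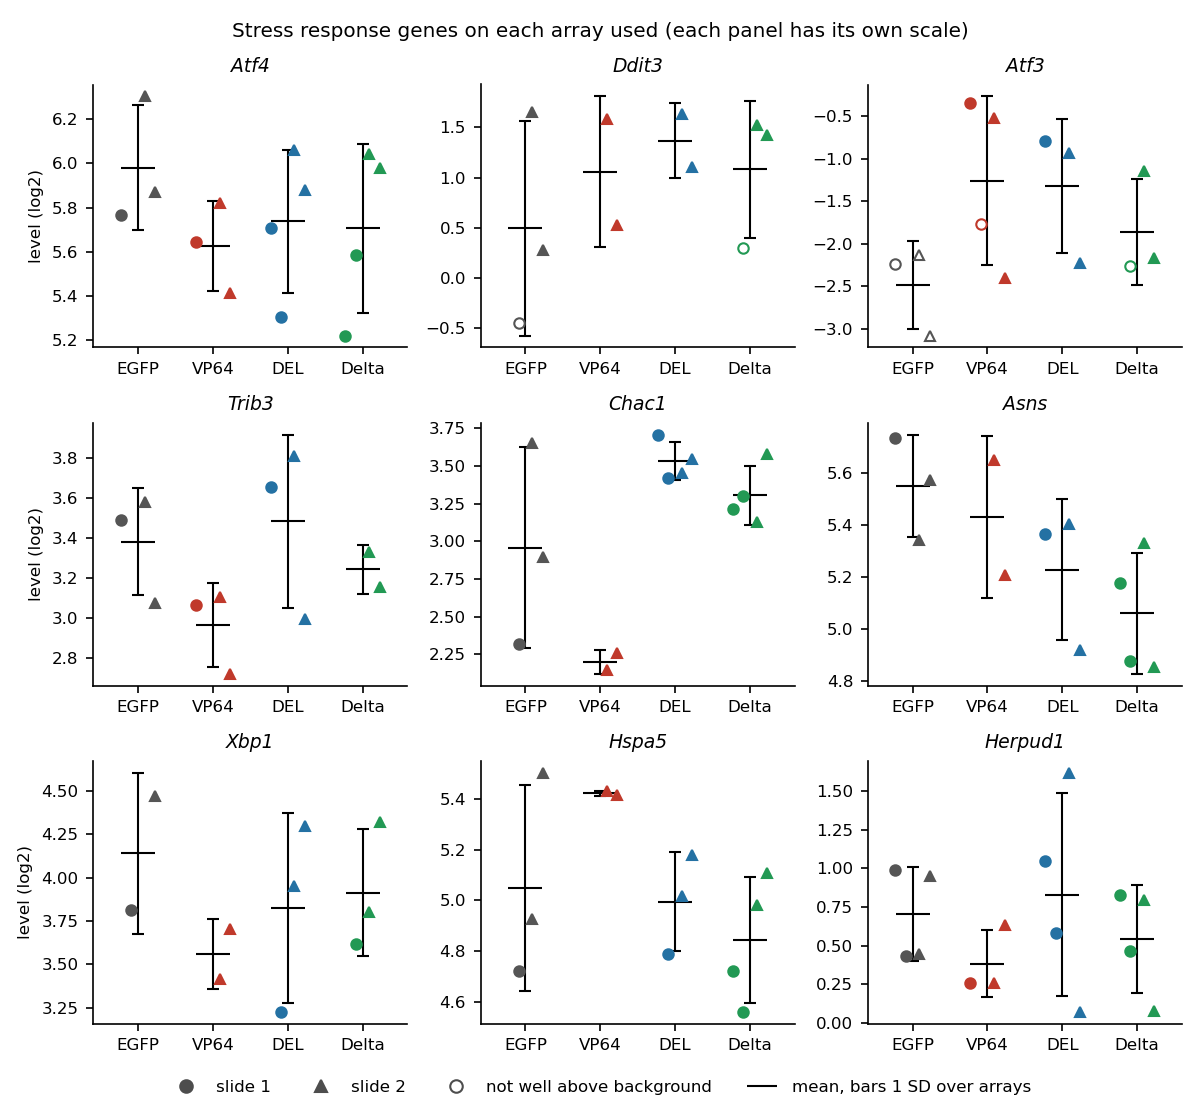
Level of each stress gene on each array used, as log2 relative to the array's 75th percentile, for EGFP, VP64, DEL and Delta; circles are slide 1, triangles slide 2, open symbols were not well above background, bars are the mean ± 1 SD. Chac1 lies at 2.14 and 2.26 in VP64 against 3.13 to 3.71 in DEL and Delta, while the Ddit3 groups overlap between -0.45 and 1.66.

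Atf4, the transcription factor at the centre of the pathway, was well above background on all 16 arrays. Its probe used in the test read 5.77, 6.30 and 5.87 in EGFP, 5.65, 5.82 and 5.42 in VP64, 5.71, 5.30, 6.06 and 5.88 in DEL, and 5.22, 5.59, 6.04 and 5.98 in Delta. All groups overlapped, though only 1 VP64 array, at 5.82, reached into the EGFP range. VP64 differed from EGFP by -0.30 ± 0.22 (limma, SE; adjusted p = 0.895), with a 95% interval from -0.85 to 0.26. With marked spots kept, another VP64 array came in at 3.63, the lowest Atf4 value of all arrays, and the difference was -0.99 ± 0.41 (adjusted p = 0.604). This probe was saturated on 5 arrays, which can compress differences at the top. The other Atf4 probe, with no saturated spot, had array means of 4.14 in VP64, 4.60 in EGFP, 4.51 in DEL and 4.39 in Delta, so both probes had their lowest mean in VP64.

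Ddit3 encodes CHOP, the transcription factor that links lasting stress to cell death. It read -0.45, 1.66 and 0.27 in EGFP, 1.59 and 0.52 in VP64, 1.63 and 1.11 in DEL, and 0.29, 1.53 and 1.43 in Delta. Within each group the array numbered 3 was the highest, at 1.53 to 1.66, and these 4 arrays differed from each other by less than the arrays of any one group did. The VP64 and DEL values came from slide 2 alone, while EGFP and Delta each had 1 array of slide 1, at -0.45 and 0.29. In EGFP and in Delta, 2 of the 3 arrays used were well above background. The difference of VP64 from EGFP was 0.27 ± 0.63, that of DEL 0.58 ± 0.63 and that of Delta 0.41 ± 0.63 (limma, SE). Slide was a term of the test in 1 of its 3 pairings only, and these differences come from a pairing without it. They are thus not corrected for slide. The 95% intervals reached from -1.22 to 1.77, from -0.91 to 2.08 and from -1.09 to 1.91, so a change of 1 log2 unit in either direction could not be seen for VP64 at this precision. Over the arrays with both values, the 3 genes whose levels ran closest to Ddit3 were Apbb2 (Pearson r = 0.98, 9 arrays), Plekhm2 (0.94, 10 arrays) and Artn (0.94, 9 arrays), among 3454 genes searched. Those arrays share groups, slides and technical repeats.

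Atf3, an immediate stress-induced transcription factor that can repress its own and other promoters, has its promoter shown here. The reason is that ATF4 is known to bind C/EBP-ATF response elements (CARE, TGATGNAA on either strand), and the window holds one. The sequences in this section are RefSeq promoters of the GRCm38.p6 build, written 5′ to 3′ on the gene's strand, with the matched letters in capitals. The stretch for Atf3 is chr1:191183391-191183488, minus strand, from 155 to 58 bases before the start of transcription.
Atf3: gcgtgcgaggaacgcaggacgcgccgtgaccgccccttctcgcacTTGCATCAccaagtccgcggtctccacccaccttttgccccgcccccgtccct

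Atf3 read -2.24, -2.13 and -3.08 in EGFP, and none of these was well above background. It read -0.35, -1.77, -0.52 and -2.41 in VP64, -0.80, -0.93 and -2.22 in DEL, and -2.27, -1.14 and -2.17 in Delta. The ranges overlapped in every pair of groups, since each TALE group had an array below the highest EGFP value. As no EGFP value was well above background, the EGFP mean is uncertain. For a comparison, each EGFP array took the higher of its own value and its lowest signal well above background (mean -2.43, measured mean -2.48). Against that, the mean of -1.26 in VP64 was 2.25-fold higher and that of -1.32 in DEL 2.16-fold. That of -1.86 in Delta was 1.49-fold higher, with 2 of its 3 arrays well above background. These folds are not lower limits. The EGFP array at -2.13 was not well above background, although the lowest signal on it that was stood at -2.66. The 5th percentile of signals well above background was -1.45, -1.71 and -2.07 on these EGFP arrays, a range that holds the Delta mean. This percentile was -2.73 to -1.76 on VP64 arrays, -2.82 to -1.74 on DEL arrays and -3.19 to -1.99 on Delta arrays. Detection thus reached lower on some TALE arrays than on any EGFP array. The Delta difference turned to -0.50 without the patch correction, to -0.19 with normexp and to -0.31 in the authors' deposited values. The fitted differences from EGFP were 1.37 ± 0.72 in VP64 (adjusted p = 0.732), 1.09 ± 0.72 in DEL (adjusted p = 1.000) and 0.46 ± 0.36 in Delta (adjusted p = 1.000; limma, SE), none past the threshold. With the replicate number as a block, the VP64 difference passed it (limma, adjusted p = 0.00977). The labels do not state such a pairing. Between VP64 and EGFP, arrays of equal number correlated at 0.04 to 0.31 after group means were removed, the lowest under 0.1. On slide 2 alone the differences were 1.14, 1.02 and 0.95. On slide 1 they were 1.18 in VP64 and 1.45 in DEL, but -0.02 in Delta. The means of VP64 and DEL were closer to each other than their SDs of 0.99 and 0.79.

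Trib3, a pseudokinase induced by ATF4 and CHOP that dampens ATF4 activity, read 3.49, 3.58 and 3.08 in EGFP. It read 3.07, 3.10 and 2.72 in VP64, 3.66, 3.81 and 3.00 in DEL, and 3.33 and 3.16 in Delta. VP64 had the lowest mean, 2.96 ± 0.21 (SD, n = 3), and its arrays lay below both Delta arrays but overlapped EGFP and DEL. The difference of VP64 from EGFP was -0.40 ± 0.34 (adjusted p = 0.915; limma, SE), from DEL -0.46 ± 0.34 and from Delta -0.25 ± 0.24. With spots marked by the scanner software kept, 1 Delta array came in at 2.22 and the difference from Delta turned to 0.032. It turned to 0.39 without the patch correction and to 0.044 in the authors' deposited values.

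Chac1, which degrades glutathione and is among the targets that ATF4 and CHOP raise most in stressed cells, had the widest spread between group means of the 9, at 1.33. Its promoter holds a CARE match from 193 to 186 bases before the start, shown here as chr2:119351004-119351101, plus strand, with TTGCATCA being the reverse complement of the motif as written above.
Chac1: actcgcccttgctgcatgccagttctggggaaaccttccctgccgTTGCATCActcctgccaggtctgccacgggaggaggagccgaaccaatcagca

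Chac1 read 2.14 and 2.26 in VP64, on slide 2. It read 3.71, 3.42, 3.46 and 3.55 in DEL, 3.21, 3.30, 3.13 and 3.58 in Delta, and 2.32, 3.65 and 2.89 in EGFP. Both VP64 arrays were below every array of the other groups, while EGFP alone spanned 2.32 to 3.65. VP64 differed from DEL by -1.50 ± 0.41, with a 95% interval from -2.62 to -0.37 (adjusted p = 1.000), and from Delta by -1.27 ± 0.41, from -2.39 to -0.15 (adjusted p = 0.991; limma, SE). The difference from EGFP was -0.76 ± 0.41, from -1.88 to 0.36 (adjusted p = 0.785). These differences come from the pairing with the largest p and so need not equal the gap between array means. For Chac1 it was the pairing of arrays 1 and 2 and of 3 and 4, with slide as a term. VP64 then had 1 sample, so these differences and intervals rest on it and on a slide shift fitted in the other groups. The array means were 2.20 in VP64, 3.53 in DEL, 3.31 in Delta and 2.96 in EGFP.

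Within slide 2 alone, where all 4 groups had both arrays, VP64 was lower than DEL by a difference of -1.30, than Delta by -1.15 and than EGFP by -1.07. In the fit without averaging, the adjusted p was 0.0652 against DEL, 0.123 against Delta and 0.204 against EGFP. That against DEL became 0.0451 without EGFP replicate 2 and 0.0352 without EGFP replicate 3, with the difference itself at -1.34 and -1.40. The 2 VP64 arrays of slide 1 were left out as marked. With marked spots kept, 1 of them came back at 2.41; the VP64 arrays then still lay below all DEL and Delta arrays but no longer below EGFP replicate 2.

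The difference of VP64 from DEL ranged from -1.73 to -1.29 over 30 other processing choices. From Delta it ranged from -1.46 to -1.07 and from EGFP from -1.14 to -0.39, each also over 30. All 93 values, the 3 reported included, were below 0. Chac1 had no value without VP64 replicate 3, without VP64 replicate 4 or on slide 1 alone. Most of the choices reuse the same 2 VP64 arrays of slide 2, so the shared sign is largely that of these arrays. Markers of other lineages are set beside the Chac1 values. Of 8 trophoblast markers, 4 could be tested (Eomes, Gata3, Krt8 and Krt18) and limma called 0 of them in VP64 against EGFP (3 had an unadjusted p under 0.05, beside 8.33% of all genes), with a median difference of 3.09 from EGFP, 1.80 from Delta and 2.03 from DEL. Their summed linear level per array was 7.77 to 151 in VP64, 2.92 to 38.1 in DEL, 0.416 to 46.9 in Delta and up to 10.8 in EGFP. These sums rest on 3 or 4 markers per VP64 array but on 2 to 4 in DEL, 1 to 4 in Delta and 0 to 4 in EGFP, so their low ends are not comparable. On the 2 arrays with all 4 markers in both VP64 and Delta, numbered 3 and 4, the sums were 151 and 56.4 in VP64 and 46.9 and 9.51 in Delta. The 10 tested ES cell markers differed between VP64 and DEL by a median of -0.11 and between VP64 and Delta by -0.09. Elf5, a defining trophoblast factor, was not well above background on any array. The VP64 sums rest mostly on Krt8 and Krt18 (VP64 means 4.64 and 5.54), with Gata3 at 0.89 and Eomes at -0.88. In the other lists the main test called 0 in VP64 against EGFP, where the median difference of all genes was 0.01. Of 4 tested fibroblast markers 3 were higher in VP64 (median 1.30), and of 7 of primitive endoderm 6 (median 0.27). Of 3 neural markers 1 was higher (median -0.41). The part of these lineage and ES cell markers in the Chac1 values was not tested. In a bulk sample, fewer cells of a type and less RNA per cell cannot be told apart.

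**Figure D2:**
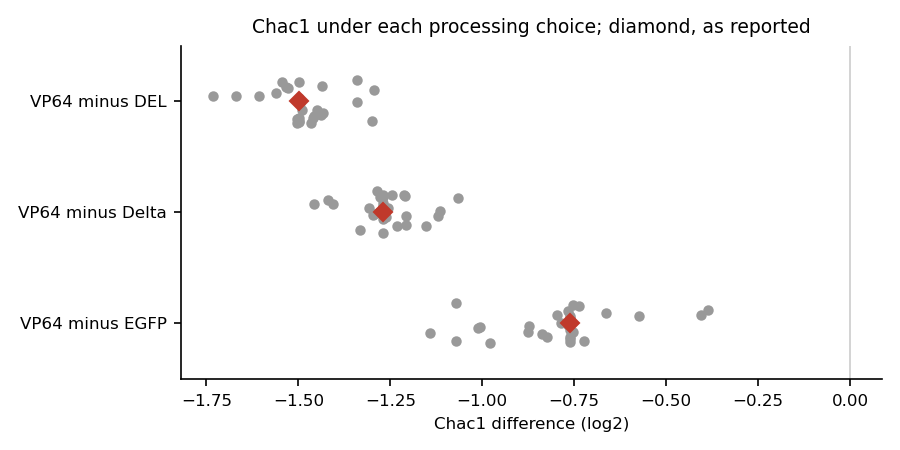
Difference in Chac1 level (log2) of VP64 from EGFP, Delta and DEL; the diamond is the reported value and each grey point 1 other processing choice. All points lie below 0, from -1.73 to -1.29 against DEL, from -1.46 to -1.07 against Delta and from -1.14 to -0.39 against EGFP. Most points reuse the same 2 VP64 arrays, and none leaves out VP64 replicate 3 or 4.

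Asns, which makes asparagine and is a classical target of the amino acid branch, carries a CARE match close to its start. The stretch is chr6:7693210-7693277, minus strand, ending at the base before the start.
Asns: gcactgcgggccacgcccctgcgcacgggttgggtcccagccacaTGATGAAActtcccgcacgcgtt

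Asns read 5.74, 5.34 and 5.58 in EGFP, 5.65 and 5.21 in VP64, 5.37, 5.40 and 4.92 in DEL, and 5.18, 4.88, 5.33 and 4.86 in Delta. EGFP had the highest mean, 5.55 ± 0.20 (SD, n = 3), and Delta the lowest, 5.06 ± 0.23 (SD, n = 4). Every Delta array lay below every EGFP array, the closest pair being 5.33 and 5.34, and this also held with marked spots kept. The difference of Delta from EGFP was -0.50 ± 0.30 (adjusted p = 1.000; limma, SE), that of DEL -0.23 ± 0.24 and that of VP64 -0.07 ± 0.24. Both VP64 values came from slide 2.

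CARE matches were also found in Herpud1, from 112 to 105 bases before the start, and in Trib3, from 14 to 21 bases after it. Of the 10 genes named, Hspa1b included, 5 held the motif in the 300 bases from 250 before to 50 after the start, beside 3.97% of 32851 promoters of the same length. Chac1, Trib3, Atf3, Asns and Herpud1 all held it, and between VP64 and EGFP their differences ran from -0.76 to 1.37, both ends being CARE-bearing genes. Ddit3 and Atf4 held none of the motifs searched in this window. A match is a description of letters and not a bound site.

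Hspa5 encodes BiP, the main ER chaperone, and is the textbook readout of the unfolded protein response. Its promoter holds the ER stress response element (ERSE, CCAAT and CCACG with 9 bases between them, on either strand) known to take NF-Y and ATF6, from 65 to 47 bases before the start; 0.119% of promoters hold it. The stretch is chr2:34771980-34772088, plus strand.
Hspa5: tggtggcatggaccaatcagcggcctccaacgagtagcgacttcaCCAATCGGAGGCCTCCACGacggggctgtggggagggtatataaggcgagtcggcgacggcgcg

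Hspa5 read 4.72, 4.93 and 5.50 in EGFP and 5.43 and 5.42 in VP64. It read 4.79, 5.02 and 5.18 in DEL, and 4.72, 4.56, 4.98 and 5.11 in Delta. The VP64 arrays lay above all DEL and Delta arrays but not above the highest EGFP array. The difference of VP64 from EGFP was 0.26 ± 0.27 (adjusted p = 0.979), from DEL 0.28 ± 0.24 and from Delta 0.38 ± 0.24 (limma, SE). Both VP64 values came from slide 2; with the marked spots of slide 1 kept, VP64 arrays ranged from 4.36 to 5.43 and overlapped every group. Against Delta the difference turned to -0.24 without the patch correction and to -0.21 in the authors' deposited values. The 3 genes whose levels ran closest to Hspa5 were Lmnb1 (Pearson r = 0.89), Nudt9 (0.88) and Ube2w (0.86), each over 12 arrays that share groups, slides and repeats.

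Xbp1, whose spliced form encodes the transcription factor of the Ern1 branch, read 3.81 and 4.47 in EGFP, 3.41 and 3.70 in VP64, 3.23, 3.95 and 4.30 in DEL, and 3.62, 3.80 and 4.32 in Delta. The VP64 arrays lay below both EGFP arrays and overlapped DEL and Delta. Both VP64 values came from slide 2, and the EGFP values from 1 array of each slide. The difference of VP64 from EGFP was -0.58 ± 0.37 (adjusted p = 0.821; limma, SE). With marked spots kept, the VP64 arrays ranged from 2.64 to 3.70 and the EGFP arrays from 3.55 to 4.47, so they overlapped. The direction turned to 0.26 without the patch correction and to 0.10 with normexp background correction.

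Herpud1, a membrane protein of ER-associated degradation, holds the related element ERSE-II (ATTGG and CCACG with 1 base between them), which 0.0365% of promoters hold, from 52 to 42 bases before its start. It read 0.99, 0.43, 0.45 and 0.95 in EGFP, 0.26, 0.26 and 0.63 in VP64, 1.05, 0.58, 1.62 and 0.07 in DEL, and 0.83, 0.47, 0.79 and 0.08 in Delta. VP64 had the lowest mean, 0.38 ± 0.22 (SD, n = 3), against 0.70 ± 0.31 (SD, n = 4) in EGFP, and all groups overlapped. The DEL arrays alone spanned 1.55, against 0.448 between the group means. None of the 10 promoters held the unfolded protein response element TGACGTGG or a heat shock element (GAA, TTC and GAA with 2 bases between each), which 0.676% and 0.603% of promoters hold.

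**Figure D3:**
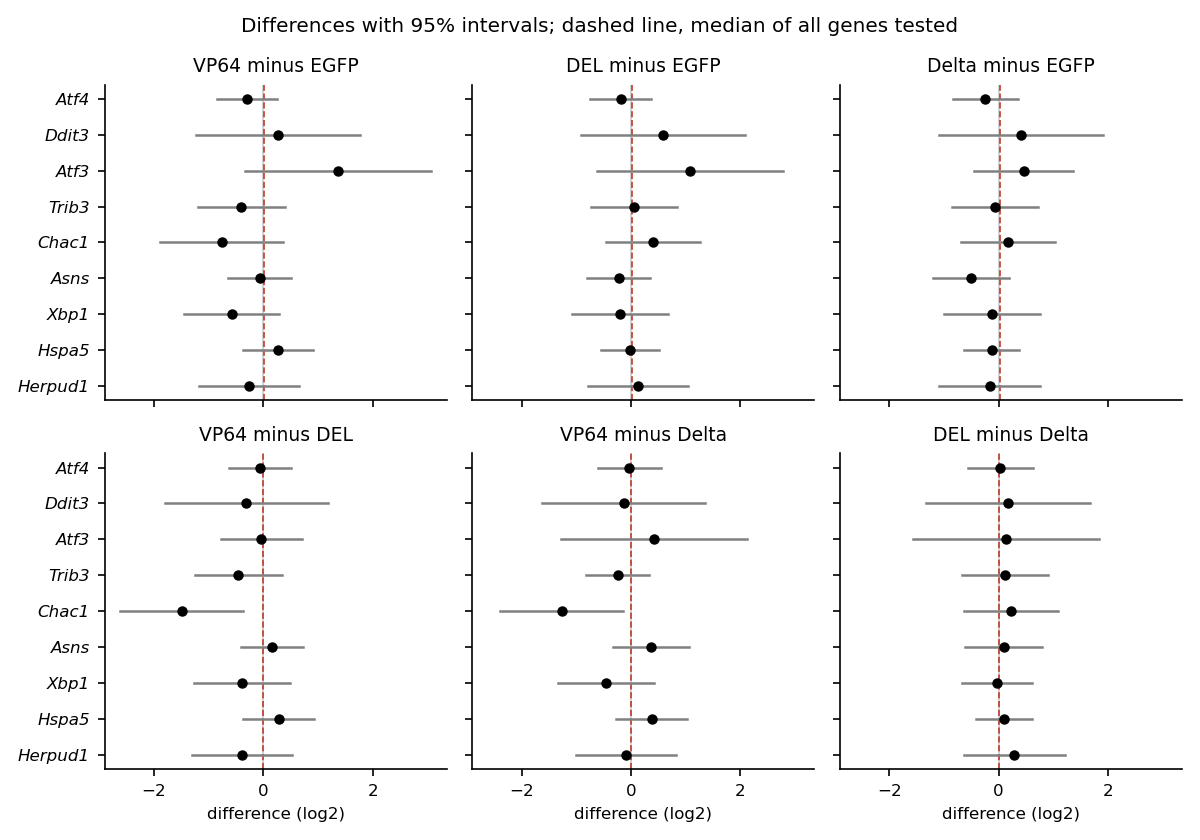
Difference in level (log2) of each stress gene in the 6 pairs of groups, with 95% intervals from limma; the dashed line is the median of all 10955 genes. The interval of Chac1 lies below 0 in VP64 minus DEL (-2.62 to -0.37) and VP64 minus Delta (-2.39 to -0.15), before adjustment over all genes. VP64 entered both as 1 sample.

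Read as a group by the sign of the fitted difference alone, 3 of the 9 genes were higher and 6 lower in VP64 than in EGFP, with a median of -0.26 beside 0.01 for all genes. In DEL 5 were higher and 4 lower (median 0.06, all genes 0.03), and in Delta 3 were higher and 6 lower (median -0.12, all genes 0.02). Between VP64 and DEL 2 were higher and 7 lower (median -0.31, all genes -0.01), Atf3 being fitted at -0.04 ± 0.31 although its array mean was the higher in VP64, and between VP64 and Delta 3 and 6 (median -0.10, all genes 0.00). Between DEL and Delta 8 were higher and 1 lower (median 0.12, all genes 0.00), with fitted differences from -0.03 to 0.29; for Atf3 the fitted 0.14 ± 0.72 was smaller than the gap between its array means of -1.32 and -1.86.

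Groups that did not overlap were counted next. VP64 and EGFP separated in 2 of 9 genes, beside 23.0% of all genes. VP64 lay wholly below EGFP in these 2, Chac1 and Xbp1, beside 9.44% of all genes, and wholly above it in 0, beside 13.6%. VP64 and Delta separated in 3, beside 23.1%. VP64 lay below Delta in 2, Chac1 and Trib3, beside 11.4%, and above it in 1, Hspa5, beside 11.7%. VP64 and DEL separated in 2, beside 18.4%. VP64 lay below DEL in 1, Chac1, beside 9.4%, and above it in 1, Hspa5, beside 9.02%. Delta and EGFP separated in 1, beside 13.6%. Delta lay below EGFP in it, Asns, beside 5.06%, and above it in 0, beside 8.58%. DEL and EGFP did not separate in any of the 9 genes, beside 11.6% in either direction, 7.48% with DEL higher and 4.17% with DEL lower. Nor did DEL and Delta, beside 4.63%, 2.34% with DEL higher and 2.29% with DEL lower. With only 9 genes a single gene already exceeds most of these background shares. Where only 2 arrays of a group are left, groups separate more easily.

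Several stress genes differed more between arrays of one group than between groups. On slide 2 the array numbered 3 was higher than the array numbered 4 in all 4 groups for Atf4, Ddit3, Atf3 and Trib3. For Ddit3 the gap was 1.38 in EGFP, 1.06 in VP64, 0.52 in DEL and 0.10 in Delta. For Atf3 it was 0.95, 1.88, 1.29 and 1.03 in the same order. Trib3 showed 0.50, 0.38, 0.81 and 0.17, and Atf4 0.43, 0.41, 0.18 and 0.07. So 4 of the 8 stress genes with all 8 values had this order in every group, beside 13.3% of 4904 genes, and 0 of 8 had the opposite order, beside 9.4%. Chac1 had it in EGFP alone, Hspa5 in VP64 alone by 0.01, and Xbp1 was lower on the array numbered 3 in the 3 groups measured. The pattern was noticed in these data and has no test, and whether equal numbers mark a shared culture or a shared day is not given in the labels.

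The wider pathway was read through 4 lists. The list of targets includes Ddit3, Atf3, Atf4, Trib3, Chac1 and Asns, and that of ER chaperones and degradation factors Hspa5, Xbp1 and Herpud1. The medians and counts of these lists are thus not independent of the stress genes described above. Of 44 stress response targets, 36 were tested and limma called 0 in each comparison; 2 had an unadjusted p under 0.05 in VP64 against EGFP, beside 8.33% of all genes, and 1 in Delta against EGFP, beside 2.9%. In VP64 against Delta and against DEL it was 1, Chac1, beside 4.93% and 4.16%. The median difference from EGFP was -0.18 in VP64, 0.02 in DEL and -0.04 in Delta, beside 0.01, 0.03 and 0.02 for all genes. In VP64, 11 were higher and 25 lower by sign. Ppp1r15a, the phosphatase subunit that restores translation, differed by 0.18 ± 0.33. Sesn2, a stress-induced regulator of growth signalling, differed by -0.18 ± 0.30. Psat1 and Phgdh, enzymes of serine synthesis, differed by -0.29 ± 0.43 and 0.16 ± 0.40. The transcription factor gene Cebpg differed by 0.04 ± 0.64 and Gdf15, a secreted stress signal, by -0.29 ± 0.67 (all VP64 minus EGFP, SE). Slc7a11, the cystine transporter, was not among the genes tested.

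Of 18 sensors and regulators of translation, 13 were tested and 0 called, and none had an unadjusted p under 0.05 in any comparison. The median difference from EGFP was 0.06 in VP64, 0.04 in DEL and 0.04 in Delta. Eif2ak3, the ER kinase PERK, differed by 0.44 ± 0.44 in VP64, and Atf6 by -0.27 ± 0.35. Ern1 was not among the genes tested.

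Of 33 ER chaperones and degradation factors, 26 were tested and 0 called; 1 had an unadjusted p under 0.05 in VP64 against EGFP, again beside 8.33%, and 1 in VP64 against Delta, beside 4.93%. The median difference from EGFP was 0.09 in VP64, -0.01 in DEL and 0.02 in Delta. Hsp90b1, Calr and Sdf2l1, chaperones of the ER lumen, differed in VP64 by 0.18 ± 0.91, -0.01 ± 0.40 and 0.04 ± 0.23. Dnajb9, a co-chaperone raised by spliced Xbp1, differed by 0.37 ± 0.21 (adjusted p = 0.768; limma, SE).

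Of 20 cytosolic heat shock genes, 19 were on the array, 16 were tested and 0 called. In VP64 against EGFP, Delta and DEL 1 had an unadjusted p under 0.05, beside 8.33%, 4.93% and 4.16% of all genes. The median difference from EGFP was -0.07 in VP64, -0.01 in DEL and 0.02 in Delta. Hspa1a, the near-identical neighbour of Hspa1b, differed in VP64 by -0.95 ± 0.76, and its probe could also take Hspa1b transcripts. Hspa8, the constitutive chaperone, differed by -0.20 ± 0.32, with saturated spots on some arrays. Hsph1 and Dnajb1, which work with Hsp70, differed by -0.01 ± 0.33 and 0.00 ± 0.27. The fit without averaging called 1 gene of these lists, Cryab, a small heat shock protein of muscle and lens that was singled out after its values were seen. Cryab read 4.26, 3.84 and 2.19 in VP64, 0.53 and -0.53 in EGFP, 1.61, 0.61, 1.23 and 0.62 in DEL, and 0.40, 1.69 and 0.75 in Delta. VP64 lay above every other array, and its difference from EGFP was 3.54 ± 0.69 (limma, SE; adjusted p = 0.351, or 0.0251 without averaging).

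**Figure D4:**
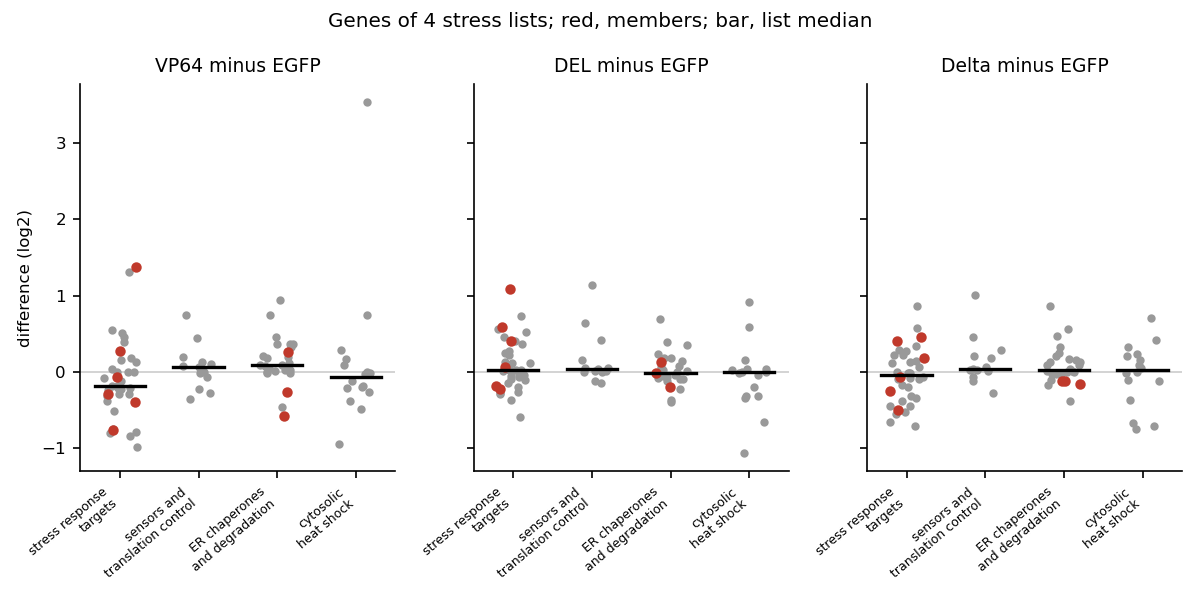
Difference from EGFP (log2) of each tested gene of the 4 lists in VP64, DEL and Delta; red points are genes described above, black bars the list medians. Medians lie between -0.18 and 0.09, and the point at 3.54 in VP64 is Cryab.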

How the data were processed

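The starting point was the scanner table of each of the 16 one-colour Cy3 arrays, as deposited. Its processed signal is an intensity with the background subtracted on each array and no scaling across arrays, made by version 11.5.1.1 of Agilent Feature Extraction, per the file headers. The value table of the series, also deposited by the authors, is on a log2 scale with the same quantiles in every column, and was an alternative. Of 55681 probes, 27656 had 1 symbol through RefSeq accessions.

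Each level is log2 of the processed signal minus the array's 75th percentile, minus the local median shift in windows of 21 by 21 spots around brighter spots (level of -1 or more). Spots shifted by over 1 log2 unit, or marked as non-uniform or outlying, were left out. Genes needed a probe well above background on 4 arrays and 2 arrays left per group; the brightest probe stood for a gene. Tests used limma 3.58.1 in R 4.3.3 as the report describes; the groups share one estimate of spread, and differences, SEs and intervals come from the pairing with the largest p. The other fits used the slide as a term or the replicate number as a block. Since the tables used hold no mean signal, normexp (offset 50) took the median signal.

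Arrays with equal numbers correlated after group means were removed, at 0.18 to 0.28 between VP64 and DEL and 0.37 to 0.58 between DEL and Delta; elsewhere the lowest value was under 0.1 (0.04 to 0.31 between VP64 and EGFP), although 15 of 16 arrays had their best match in another group at the same number. The main test did not pair arrays by number, and the fit with the number as a block covered all 6 comparisons. Its pairing is borne out only between VP64 and DEL and between DEL and Delta, by the data and not the labels. Nothing states which arrays came from separate cultures, so p-values may measure technical spread. The stress genes, the lists and the genes given as examples were chosen with earlier results of these data known. The examples were all stress genes with a probe, Ptn, listed genes passing the main test (none did), 18 preset names, and the 3 genes closest in pattern to Ddit3 and Hspa5. The fits were also run on simulated levels with known changes. Those levels held no slide effect and no link between arrays of equal number, so the run does not bear on either. The number of arrays limits the precision.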

Additional observations from a re-analysis of the deposited data

How the results depend on the processing

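Over 33 settings the 54 differences of the 9 stress genes gave 1660 alternative values, of which 1544 kept the sign of the reported one; 24 differences kept it in every setting that gave a value. Where the reported difference exceeded its SE, 13 values changed sign; the cause was not tested. Without the patch correction, Xbp1 in VP64 minus EGFP became 0.26, Atf3 in Delta minus EGFP -0.50, Trib3 in VP64 minus Delta 0.39 and Hspa5 in VP64 minus Delta -0.24. With normexp, Xbp1 in VP64 minus EGFP became 0.10 and Atf3 in Delta minus EGFP -0.19. In the authors' deposited values, Atf3 in Delta minus EGFP was -0.31, and in VP64 minus Delta Trib3 was 0.044, Asns -0.041 and Hspa5 -0.21. Quantile normalization put Atf4 in VP64 minus EGFP at 0.092, keeping marked spots put Trib3 in VP64 minus Delta at 0.032, and slide 1 alone put Atf3 in Delta minus EGFP at -0.024.

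Counts of genes called moved more. The unaveraged fit gave 373 in VP64 minus EGFP, 78 in VP64 minus Delta, 95 in VP64 minus DEL and 2 in Delta minus EGFP, against 2, 1, 1 and 0. With the replicate block, 674, 239 and 239 were called in the VP64 comparisons, 16 in DEL minus EGFP, 10 in Delta minus EGFP and 0 in DEL minus Delta. Under that block 1 stress gene was called, Atf3 in VP64 minus EGFP (1.41 ± 0.23, adjusted p = 0.00977, limma, SE; 0.00977 to 1.00 over its alternatives). Between these groups arrays of equal number correlated at only 0.04 to 0.31, and Atf3 in EGFP was not well above background. The block changed no other call among the 9. In the VP64 comparisons, 0 genes were called without patch correction, with quantile normalization, with normexp, in the deposited values and with detection on 8 arrays. With no filter on dim probes VP64 minus EGFP gave 1 and the others 0. Windows of 11 and 41 spots gave 4 and 1 in VP64 minus EGFP, a patch limit of 0.5 gave 2 in VP64 minus Delta, and marked spots kept gave 2 in VP64 minus DEL. Leaving out 1 array gave 0 to 3 in VP64 minus EGFP, 0 to 2 in VP64 minus Delta, 0 to 2 in VP64 minus DEL and 0 in the others, with 0 of the stress genes still tested, which were 4 of the 9 without VP64 replicate 3 or 4 (Chac1 not among them) and 8 or 9 otherwise. It was 0 in VP64 minus EGFP without VP64 replicate 1 or 4, and 0 in the other VP64 comparisons without VP64 replicate 1, 3 or 4. In the unaveraged fit the VP64 comparisons gave 133 to 358 against EGFP, 13 to 101 against Delta and 10 to 97 against DEL; the 3 lowest counts came without VP64 replicate 3, 3 and 1.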
